A study of Mus musculus with 4 samples.

Results

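The members described here are 10 mouse genes of antigen presentation: the regulators Ciita and Nlrc5, the class II genes H2-Aa, H2-Ab1, H2-Eb1, H2-DMa and Cd74, and the class I genes B2m, H2-K1 and H2-D1. They were found by matching the gene name that the authors gave to each accessible region, which is the nearest gene and need not be a gene that the region controls. Of these 10 genes, 9 were the nearest gene of at least 1 region, with 35 regions in all among 80929 regions and 26614 gene names. No region carried the name H2-DMa.

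RAW264.7, a macrophage-like line from mouse, was profiled by ATAC-seq, which reads out open chromatin by cutting it with a transposase that leaves adapters behind. The titles name 2 libraries from cells given CuNZ@Gel, a hydrogel that carries a nanozyme according to the series title, and 2 libraries from cells given Gel, all after 48 h. The treatment text is identical for all 4 samples and names CuNZ@Gel alone, so the Gel group rests on the titles. All libraries come from a single line, and separate cultures are not stated for the replicates, so each p-value reflects how far these libraries differ, and that spread may be technical.

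The CuNZ@Gel libraries held 7440680 and 10236624 reads in regions, against 18843654 and 17914934 in the Gel libraries. Values are RPM, the reads in a region per 1000000 effective reads of the library, and 1 read was worth 0.121 and 0.0889 RPM in the CuNZ@Gel libraries against 0.0583 and 0.0619 RPM in the Gel libraries. Reads in regions per unit of genome background pileup were, in units of 1000000 reads, 6.37 and 8.53 in the CuNZ@Gel libraries against 18.8 and 18.6 in the Gel libraries, so the group and this difference in depth over background cannot be told apart. Regions with many reads were lower in CuNZ@Gel almost throughout: of 10 equal bins by level, the highest had a median log2 change of -0.60 and 86.9% of its regions were called lower. For this reason changes are also given after cyclic loess, a scaling that removes the trend of change with level, for the genes and regions described in detail. In bulk chromatin, fewer cells with an open region and a lower opening in every cell cannot be told apart.

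The macrophage label was checked on marker genes. All 8 macrophage markers had regions, with summed levels of 824 and 822 RPM in CuNZ@Gel against 967 and 963 RPM in Gel. Over 6 of 6 dendritic cell markers the sums were 203 and 194 RPM in CuNZ@Gel against 192 and 199 RPM in Gel, and over 4 of 5 B cell markers 59.4 and 54.1 RPM in CuNZ@Gel against 60.1 and 61.0 RPM in Gel. T cell markers, 5 of 6 with a region, summed to 101 and 94.8 RPM in CuNZ@Gel against 130 and 132 RPM in Gel. Fibroblast markers, 3 of 5 with a region, summed to 43.8 and 41.9 RPM in CuNZ@Gel against 40.4 and 38.7 RPM in Gel. On the deposited scaling the macrophage, T cell and B cell sums were thus lower in both CuNZ@Gel libraries. The fibroblast sum was higher in both, and the dendritic cell sums overlapped but joined 2 higher and 2 lower markers. With the trend removed, 4 of 8 macrophage markers were higher and none lower, against 20.2% and 15.9% of all genes. For dendritic cells 2 were then higher and 3 lower, and for T cells none higher and 2 lower. For fibroblasts 1 was higher and none lower, and no B cell marker was called. Cd79a, Cd3g, Col1a2 and Dcn had no region. Open chromatin near a marker is not its expression, and the part of other cell types in the results was not tested.

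Class I molecules, made of a heavy chain such as H2-K1 or H2-D1 and the light chain B2m, present peptides from inside the cell to CD8+ T cells. Class II molecules, the alpha and beta chains H2-Aa with H2-Ab1 and the beta chain H2-Eb1, present peptides from taken-up material to CD4+ T cells, and in macrophages they are induced by interferon gamma. The invariant chain Cd74 guides class II molecules to the endosome, and H2-DMa is a chain of the molecule that exchanges its remnant for antigen peptides there. Ciita and Nlrc5 bind no DNA by themselves in the standard account: they join RFX, CREB family and NF-Y proteins on a promoter module of X and Y boxes, Ciita mainly at class II and Nlrc5 mainly at class I genes.

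RefSeq promoter windows on GRCm38.p6, from 250 bases before to 50 bases after a start, were available for 6 of the 10 members. A class II pair and a class I pair are shown to set side by side, for both classes, the stretch where the X and Y boxes are known to lie. Capitals mark matches to ATTGG (the core of the Y box), TGACG (part of the X2 box), GCAAC (a core of the X1 box) and a pair of GAAA runs 2 bases apart (an interferon response element), and the search covered both strands, so that capitals reading as the reverse complement are matches on the other strand. These letters were chosen after the sequences were seen. Each sequence is written along its gene, 5′ to 3′.
H2-Aa, chr17:34287774-34288073, minus strand: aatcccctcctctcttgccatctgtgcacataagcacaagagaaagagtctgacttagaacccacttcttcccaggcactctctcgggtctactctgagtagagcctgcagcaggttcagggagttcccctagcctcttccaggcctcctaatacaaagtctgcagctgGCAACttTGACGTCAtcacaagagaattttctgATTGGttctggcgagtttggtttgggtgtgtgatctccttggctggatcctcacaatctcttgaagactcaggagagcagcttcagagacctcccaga
H2-Eb1, chr17:34305617-34305916, plus strand: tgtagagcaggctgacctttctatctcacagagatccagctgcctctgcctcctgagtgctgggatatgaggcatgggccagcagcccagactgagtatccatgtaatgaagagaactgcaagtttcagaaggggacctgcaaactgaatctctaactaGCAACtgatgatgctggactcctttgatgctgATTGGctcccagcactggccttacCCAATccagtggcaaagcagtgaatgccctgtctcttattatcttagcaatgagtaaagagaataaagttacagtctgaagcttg
B2m, chr2:122147437-122147736, plus strand: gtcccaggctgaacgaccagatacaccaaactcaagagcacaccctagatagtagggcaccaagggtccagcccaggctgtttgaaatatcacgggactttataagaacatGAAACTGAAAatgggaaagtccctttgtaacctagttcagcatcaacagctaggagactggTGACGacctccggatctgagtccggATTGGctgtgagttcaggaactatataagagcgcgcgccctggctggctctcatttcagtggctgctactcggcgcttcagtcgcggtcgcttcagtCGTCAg
H2-D1, chr17:35262844-35263143, plus strand: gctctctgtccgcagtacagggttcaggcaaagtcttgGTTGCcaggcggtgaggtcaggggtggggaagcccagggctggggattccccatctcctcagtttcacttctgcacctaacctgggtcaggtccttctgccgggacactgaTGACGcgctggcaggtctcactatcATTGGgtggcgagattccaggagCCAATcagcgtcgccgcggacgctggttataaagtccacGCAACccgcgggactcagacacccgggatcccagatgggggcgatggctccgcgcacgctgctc

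The first base of ATTGG lay at -48 from the start in H2-Aa, -59 in H2-Eb1, -53 in B2m and -76 in H2-D1. TGACG began upstream of it, at -74 in H2-Aa, -78 in B2m and -101 in H2-D1, and in H2-Aa it overlapped its own reverse complement, which began at -71. The H2-Eb1 window held no TGACG, and its GCAAC began at -91, against -81 in H2-Aa. The element GAAACTGAAA began at -139 in B2m. Among the other capitals shown, CCAAT began at -35 in H2-Eb1 and at -53 in H2-D1, and CGTCA at 45 in B2m. In H2-D1, GTTGC began at -212 and GCAAC at -14, neither of them next to its TGACG. Of the windows not shown, those of H2-K1 held ATTGG at -16 and -30 and TGACG at -41 and -55. Those of H2-DMa held no TGACG, and ATTGG only at -198. Among 32851 promoter windows of this length, 37.4% held ATTGG, 20.8% TGACG, 35.2% GCAAC, 3.44% the GAAA pair and 7.73% both ATTGG and TGACG, so single matches were common. A match describes the letters and is not evidence of binding. The accessible regions lie on GRCm39, so these windows were not placed on them.

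Across the 9 genes with regions, the summed level was higher in CuNZ@Gel for 2 (Nlrc5 and H2-Aa), lower for 5 (Ciita, H2-Ab1, Cd74, B2m and H2-D1) and did not pass the test for 2 (H2-Eb1 and H2-K1). The test was limma on log2(RPM + 1), two-sided, with Benjamini-Hochberg adjustment over 25900 genes and a threshold of 0.05. Over all genes tested, 20.5% were higher and 36.1% were lower, so calls were common everywhere, and the groups did not overlap for 76.9% of genes and 8 of the 9 members. The median log2 change was -0.46 for the 9 members, against -0.10 for all genes tested. After removal of the trend, 2 members were higher and 5 lower, against 20.2% and 15.9% of all genes. Scaled to the genome background pileup instead, none of the 9 was higher and 8 were lower, against 2.78% and 75.5% of all genes. Which way Nlrc5 and H2-Aa differ therefore depends on the scaling, and the directions below are on the deposited scaling unless stated.

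**Figure D1:**
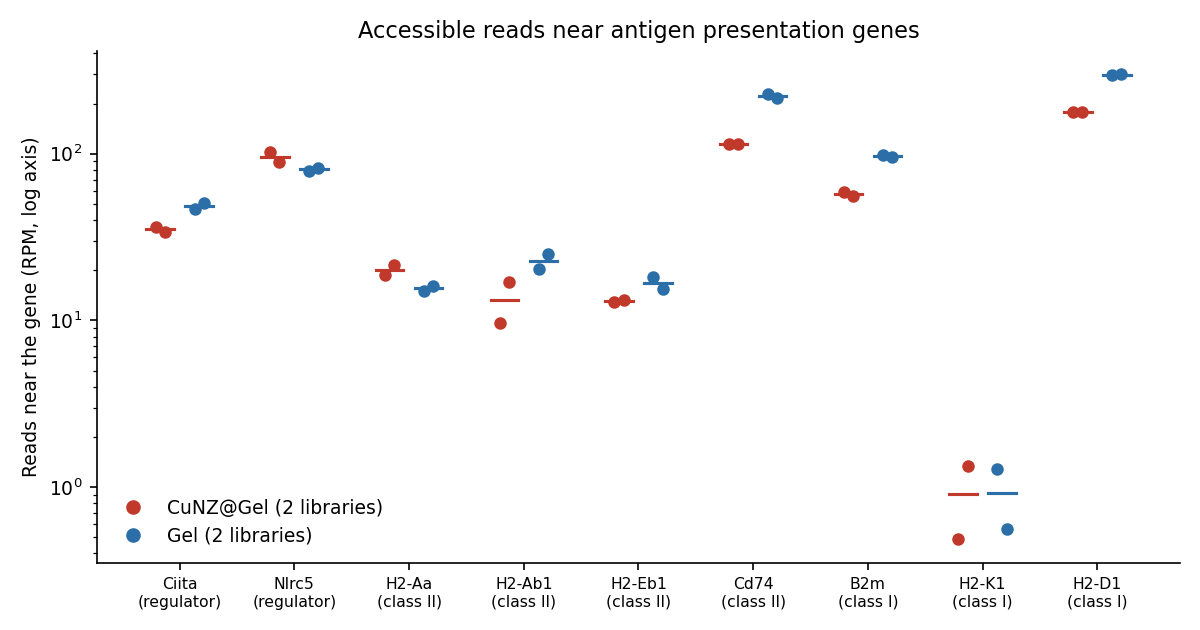
Summed reads near each gene in RPM (log axis) for the 2 CuNZ@Gel libraries (red) and the 2 Gel libraries (blue), with a bar at each mean. The groups did not overlap for 8 of the 9 genes with regions, and they overlapped for H2-K1.

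Ciita, the master regulator of class II genes, had fewer reads in CuNZ@Gel. Its 6 regions summed to 36.5 and 33.9 RPM in CuNZ@Gel against 46.7 and 50.8 RPM in Gel. Both CuNZ@Gel libraries lay below both Gel libraries. The log2 change was -0.46 ± 0.09 (SE, adjusted p = 0.000256 by limma, n = 2 each) and -0.47 with the trend removed (adjusted p = 0.000221 by limma). Scaled to library totals, it did not pass the test (log2 change -0.18, adjusted p = 0.107 by limma).

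The regions of Ciita did not move together. Across all 77014 regions tested, 21.2% were higher and 21.9% lower, and of the 6 Ciita regions 1 was higher and 3 were lower. Region 3 (GRCm39 chr16:10300137-10300536) had 3.40 and 4.36 RPM in CuNZ@Gel against 9.80 and 10.6 RPM in Gel. This was the steepest fall among the regulators' regions, with a log2 change of -1.21 ± 0.20 (adjusted p = 1.32e-06 by limma). The authors' peak lists held a peak there in both Gel libraries and in neither CuNZ@Gel library. Regions were built by joining peaks, so region 3 was included through the Gel libraries alone. A fall there was therefore favoured in advance, and the missing peak is not separate evidence of it. Region 6 (chr16:10313756-10314327), the one with the most Ciita reads in Gel, had 12.9 and 11.5 RPM in CuNZ@Gel against 18.3 and 20.1 RPM in Gel (log2 change -0.62 ± 0.14, adjusted p = 0.000308 by limma). Region 2 (chr16:10297617-10298004) had 3.76 and 3.02 RPM in CuNZ@Gel against 5.66 and 6.5 RPM in Gel (log2 change -0.69, adjusted p = 0.00913 by limma), and this call was lost without either Gel library. Region 5 (chr16:10306338-10307746) moved the other way, with 12.6 and 11.8 RPM in CuNZ@Gel against 8.98 and 9.10 RPM in Gel (log2 change 0.40, adjusted p = 0.0434 by limma). That call was lost without CuNZ@Gel replicate 1 or without either Gel library, with log2 changes between 0.35 and 0.40. With the trend removed the log2 changes of regions 2, 3, 5 and 6 were -0.82, -1.29, 0.42 and -0.48, and all 4 calls held. Regions 1 and 4 held at most 2.55 RPM in any library and did not pass the test.

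Nlrc5, the regulator of class I genes, had more reads in CuNZ@Gel on the deposited scaling. Its 7 regions summed to 102 and 88.9 RPM in CuNZ@Gel against 78.8 and 82.3 RPM in Gel. Both CuNZ@Gel libraries lay above both Gel libraries, with a log2 change of 0.24 ± 0.07 (adjusted p = 0.00796 by limma) that was 0.42 with the trend removed (adjusted p = 2.32e-05 by limma). The call was lost when CuNZ@Gel replicate 1 (log2 change 0.14, adjusted p = 0.112 by limma) or Gel replicate 1 (0.21, adjusted p = 0.0567 by limma) was left out. Scaled to the background pileup, the change was -0.81.

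On the deposited scaling, a single region carried most of the Nlrc5 difference. Region 5 (GRCm39 chr8:95184595-95185791, 42733 bases past the first Nlrc5 region) had 23.3 and 17.2 RPM in CuNZ@Gel against 6.77 and 6.44 RPM in Gel. It was the largest rise among the 35 member regions that passed the test, with a log2 change of 1.47 ± 0.16 (adjusted p = 1.17e-10 by limma) and 1.52 with the trend removed. On the background pileup its log2 change was 0.50, which did not pass the test (adjusted p = 0.083 by limma). A peak was called there in all 4 libraries. Region 3 (chr8:95154635-95156356) had 36.1 and 34.8 RPM in CuNZ@Gel against 24.9 and 32.7 RPM in Gel. Its log2 change was 0.67 with the trend removed (adjusted p = 3.0e-07 by limma). On the deposited scaling its log2 change of 0.30 (adjusted p = 0.0248 by limma) rested on Gel replicate 1: without that library it was 0.11 and missed the threshold. It also missed the threshold without CuNZ@Gel replicate 1 (log2 change 0.28, adjusted p = 0.0503 by limma). Region 4 (chr8:95160480-95161275) was lower, with 13.9 and 10.8 RPM in CuNZ@Gel against 16.9 and 17.6 RPM in Gel (log2 change -0.46, adjusted p = 0.00931 by limma), a call lost with the trend removed (-0.34, adjusted p = 0.0667 by limma), and lost when CuNZ@Gel replicate 2 or either Gel library was left out. The other 4 regions did not pass the test.

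**Figure D2:**
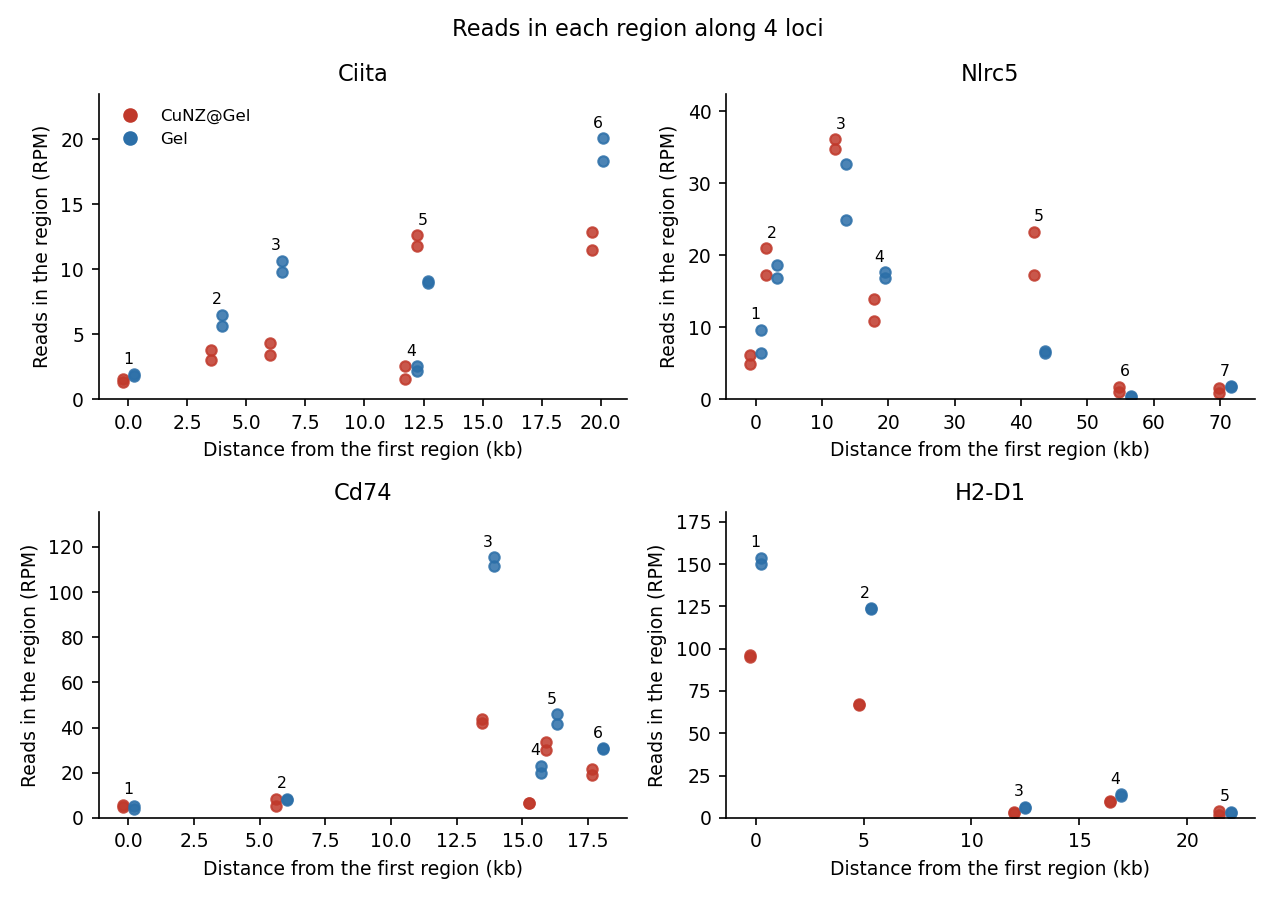
Reads in each region (RPM) of Ciita, Nlrc5, Cd74 and H2-D1 against distance from the first region of the gene in kb, with CuNZ@Gel libraries in red set slightly left of Gel libraries in blue and the region number above. Nlrc5 region 5 is higher in both CuNZ@Gel libraries (23.3 and 17.2 RPM against 6.77 and 6.44 RPM), and Cd74 regions 3 and 4 are lower in both.

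Among the class II genes, Cd74 and H2-Ab1 were lower in CuNZ@Gel, H2-Aa was higher and H2-Eb1 did not pass the test. Cd74, the invariant chain, summed to 114 and 114 RPM over 6 regions in CuNZ@Gel against 229 and 216 RPM in Gel. The CuNZ@Gel libraries lay far below the Gel libraries, with a log2 change of -0.96 ± 0.05 (adjusted p = 2.99e-11 by limma). With the trend removed the change was -0.53 (adjusted p = 2.3e-09 by limma), so the fall went beyond that of other regions of like level.

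Of the 6 Cd74 regions, 4 were lower and none was higher, against 21.9% and 21.2% of all regions tested. Cd74 region 3 had 42.0 and 44.0 RPM in CuNZ@Gel against 115 and 112 RPM in Gel (log2 change -1.38 ± 0.08, adjusted p = 1.03e-19 by limma). It lies in the highest bin by level, whose median log2 change was -0.60, and its change was -0.76 with the trend removed. Cd74 region 4, 260 bases wide with 695 bases between it and region 3, had 6.55 and 6.75 RPM in CuNZ@Gel against 23.2 and 19.9 RPM in Gel (log2 change -1.55 ± 0.15, adjusted p = 7.32e-12 by limma). This was the largest fall among the 35 member regions, and it was -1.49 with the trend removed. A peak was called there in both Gel libraries and in neither CuNZ@Gel library. The region was thus included through the Gel libraries alone, which favours a fall. Cd74 regions 5 and 6 were lower by less, with log2 changes of -0.44 and -0.58, and both calls were lost with the trend removed (-0.02 and -0.29). Cd74 regions 1 and 2 overlapped between the groups.

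H2-Ab1, the beta chain of the I-A molecule, summed to 9.70 and 17.0 RPM over 3 regions in CuNZ@Gel against 20.4 and 25.0 RPM in Gel. The libraries of the groups did not overlap, although the CuNZ@Gel pair differed widely from each other. All 3 regions were lower, against 21.9% of all regions tested. The log2 change of the sum was -0.76 ± 0.18 (adjusted p = 0.00132 by limma). It was -0.39 without CuNZ@Gel replicate 1 and -1.14 without CuNZ@Gel replicate 2. With the trend removed it was -0.86, and those of regions 1, 2 and 3 were -0.61, -1.0 and -0.86, each still lower. H2-Ab1 region 1 (GRCm39 chr17:34476451-34477096) had 4.49 and 10.2 RPM in CuNZ@Gel against 9.39 and 12.3 RPM in Gel, so the groups overlapped there. Its log2 change of -0.58 rested on CuNZ@Gel replicate 1, and it was -0.07 without that library. It was -0.40 without Gel replicate 2 (adjusted p = 0.25 by limma), where the call was also lost. H2-Ab1 region 2 (chr17:34480478-34480786) had 2.79 and 3.82 RPM in CuNZ@Gel against 6.30 and 7.43 RPM in Gel (log2 change -0.88, adjusted p = 0.000909 by limma), a call lost without Gel replicate 2 (adjusted p = 0.0565 by limma). H2-Ab1 region 3 (chr17:34482068-34482399) had 2.42 and 2.93 RPM in CuNZ@Gel against 4.66 and 5.26 RPM in Gel (log2 change -0.70, adjusted p = 0.0138 by limma), a call lost without either Gel library. Regions 2 and 3 held a peak in both Gel libraries and in neither CuNZ@Gel library, so their inclusion also favours a fall.

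H2-Aa, the alpha chain that pairs with H2-Ab1, differed in the other direction. Its 2 regions summed to 18.8 and 21.6 RPM in CuNZ@Gel against 15 and 16.1 RPM in Gel, and the groups did not overlap. The log2 change of 0.35 ± 0.13 (adjusted p = 0.0281 by limma) missed the threshold when Gel replicate 1 (0.30), Gel replicate 2 (0.40) or CuNZ@Gel replicate 2 (0.26) was left out. The sum joined opposite changes. H2-Aa region 2 (GRCm39 chr17:34512023-34512886) had 16.1 and 17.9 RPM in CuNZ@Gel against 9.80 and 10.7 RPM in Gel (log2 change 0.68 ± 0.15, adjusted p = 0.00019 by limma, and 0.76 with the trend removed). H2-Aa region 1 (chr17:34506753-34506958) had 2.67 and 3.73 RPM in CuNZ@Gel against 5.19 and 5.44 RPM in Gel (log2 change -0.60, adjusted p = 0.03 by limma, and -0.75 with the trend removed). The region 1 call was lost with voom and without CuNZ@Gel replicate 1 or either Gel library. On the background pileup H2-Aa had a log2 change of -0.65.

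H2-Eb1, the beta chain of the I-E molecule, summed to 12.9 and 13.2 RPM over 3 regions in CuNZ@Gel against 18.1 and 15.4 RPM in Gel. Both CuNZ@Gel libraries lay below both Gel libraries, but the log2 change of -0.33 ± 0.14 just missed the threshold (adjusted p = 0.0513 by limma). It passed with the trend removed (log2 change -0.47, adjusted p = 0.0113 by limma). None of its 3 regions passed the test, and their log2 changes were -0.24, -0.29 and -0.38. H2-DMa had no region of its own. In the RefSeq gene table it overlaps Brd2, a chromatin reader, and 4 regions named for Brd2 lay close by. The one with the most reads (GRCm39 chr17:34337683-34338954) had 78.9 and 85.6 RPM in CuNZ@Gel against 197 and 187 RPM in Gel (log2 change -1.21, adjusted p = 7.04e-21 by limma, and -0.40 with the trend removed). The other 3 had log2 changes of -0.20, -0.37 and -0.53, which were -0.09, 0.26 and -0.10 with the trend removed. Which of them, if any, holds the H2-DMa promoter was not tested.

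**Figure D3:**
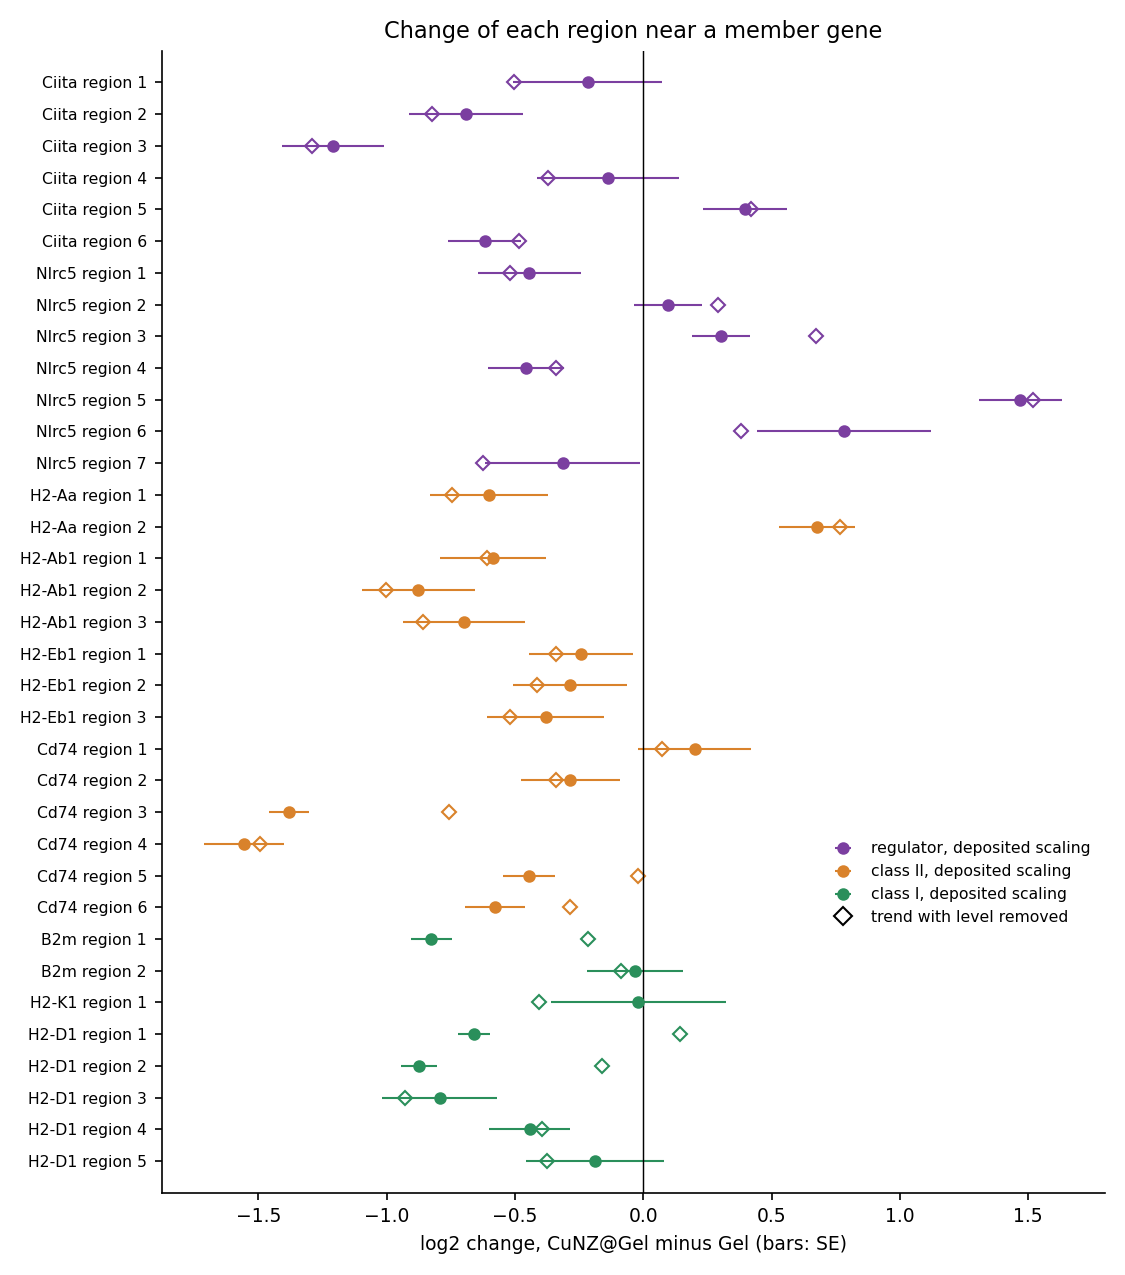
Log2 change of each of the 35 member regions, CuNZ@Gel minus Gel, with the SE as bars (filled points, coloured by regulator, class II and class I) and the change with the trend removed (open diamonds). The rises of Nlrc5 region 5 and H2-Aa region 2 and the falls of Ciita region 3 and Cd74 region 4 keep their size, and H2-D1 regions 1 and 2 move close to 0.

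Among the class I genes, B2m and H2-D1 were lower in CuNZ@Gel, and H2-K1 was too sparse to compare. B2m, the light chain of every classical class I molecule, summed to 58.6 and 55.7 RPM over 2 regions in CuNZ@Gel against 97.9 and 95.2 RPM in Gel (log2 change -0.75 ± 0.07, adjusted p = 2.64e-08 by limma). The groups were well apart, and the change was -0.21 with the trend removed (adjusted p = 0.0256 by limma). B2m region 1 (GRCm39 chr2:121977304-121978759) held most of these reads, with 50.4 and 49.1 RPM in CuNZ@Gel against 90.3 and 87.8 RPM in Gel (log2 change -0.83, adjusted p = 2.41e-12 by limma, and -0.22 with the trend removed). B2m region 2 (chr2:121983393-121983916) overlapped between the groups, with 8.13 and 6.57 RPM in CuNZ@Gel against 7.64 and 7.36 RPM in Gel.

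H2-D1, a class I heavy chain, summed to 179 and 178 RPM over 5 regions in CuNZ@Gel against 296 and 301 RPM in Gel. The replicates were close and the groups far apart, with a log2 change of -0.74 ± 0.04 (adjusted p = 6.49e-11 by limma). With the trend removed the change was -0.04 and the call was lost (adjusted p = 0.523 by limma), so no difference beyond the trend with level was detected. H2-D1 region 1 (GRCm39 chr17:35476612-35478483) had 96.4 and 95.1 RPM in CuNZ@Gel against 150 and 154 RPM in Gel, with a log2 change of -0.66 that was 0.14 with the trend removed. H2-D1 region 2 (chr17:35481675-35482277) had 66.5 and 67.5 RPM in CuNZ@Gel against 123 and 124 RPM in Gel, with a log2 change of -0.87 that was -0.16 with the trend removed. H2-D1 region 5 had 3.88 and 1.69 RPM in CuNZ@Gel against 2.86 and 3.40 RPM in Gel, so the groups overlapped there. It did not pass the test (log2 change -0.19, adjusted p = 0.625 by limma). The other weaker regions, 3 and 4, kept their fall. H2-D1 region 3 (chr17:35488821-35489190) had 2.79 and 3.47 RPM in CuNZ@Gel against 6.53 and 5.76 RPM in Gel, with a log2 change of -0.79 that was -0.93 with the trend removed. H2-D1 region 4 (chr17:35493271-35494009) had 9.46 and 9.95 RPM in CuNZ@Gel against 13.2 and 13.9 RPM in Gel, with a log2 change of -0.44 that was -0.40 with the trend removed. Both calls were lost without Gel replicate 1 (-0.72 for region 3, -0.48 for region 4), and that of region 4 also without Gel replicate 2 (-0.41).

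H2-K1, the other classical heavy chain in the set, had 1 region of 170 bases (GRCm39 chr17:34231202-34231371) with 4 and 15 reads in CuNZ@Gel against 22 and 9 reads in Gel. These are 0.485 and 1.33 RPM in CuNZ@Gel against 1.28 and 0.557 RPM in Gel, and the groups overlapped (log2 change -0.02 ± 0.35, adjusted p = 0.97 by limma). A difference was not detectable at this depth. The nearest region at lower coordinates (chr17:34219101-34219670) carried the name of the predicted gene Gm53999 and had 16.1 and 16.9 RPM in CuNZ@Gel against 35.1 and 32.4 RPM in Gel (log2 change -0.99, adjusted p = 1.31e-09 by limma, and -0.71 with the trend removed). Whether it holds the H2-K1 promoter was not tested. Class I heavy chain genes are close copies of each other and differ between mouse strains, so the share of reads placed on H2-K1, H2-D1 and their relatives is uncertain.

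In both classes more regions were lower than higher. Of the 14 class II regions, 1 was higher and 8 were lower, and of the 8 class I regions none was higher and 5 were lower. Over all regions tested, 21.2% were higher and 21.9% lower, and in the highest bin by level 86.9% were lower. That bin held B2m region 1, H2-D1 regions 1 and 2 and Cd74 regions 3 and 5. Once the trend was removed, 1 class II region was higher and 6 were lower, and 3 class I regions were lower. The shares of all regions were then 18.8% higher and 13.8% lower. Over all 35 member regions 4 were higher, 17 lower and 14 did not pass, and the groups did not overlap for 27 of the 35, against 68.3% of all regions. Their median log2 change was -0.44, against 0.00 for all regions tested. The counts were 4 higher and 13 lower with the trend removed, against 18.8% and 13.8% of all regions, and 0 higher and 31 lower on the background pileup, against 4.85% and 60.6%.

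**Figure D4:**
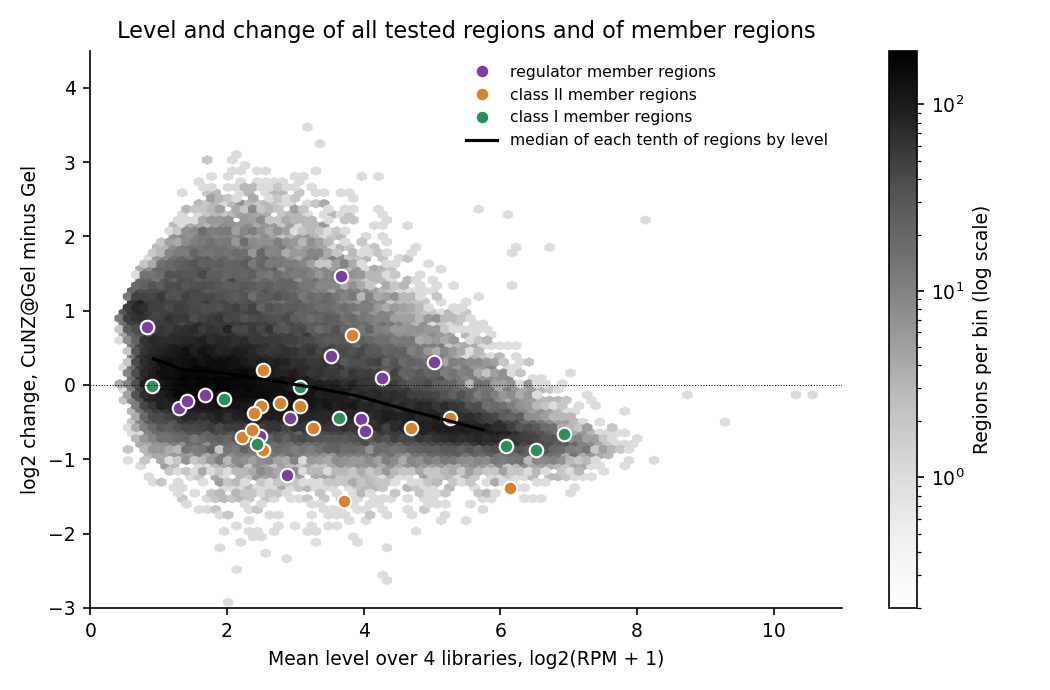
Log2 change of each tested region, CuNZ@Gel minus Gel, against its mean level as log2(RPM + 1), in grey bins with the number of regions per bin, with the 35 member regions as coloured points and the median of each of 10 level bins as a line. The line falls to -0.60 in the highest bin, which holds H2-D1 region 1 (-0.66), B2m region 1 (-0.83), H2-D1 region 2 (-0.87), Cd74 region 5 (-0.44) and, far below the line, Cd74 region 3 (-1.38).

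Summed by class, class II reads were 155 and 165 RPM in CuNZ@Gel against 282 and 272 RPM in Gel, and class I reads were 238 and 235 RPM in CuNZ@Gel against 395 and 396 RPM in Gel. Both classes were lower in both CuNZ@Gel libraries. The ratio of class II to class I reads within a library was 0.652 and 0.705 in CuNZ@Gel against 0.714 and 0.687 in Gel, a difference of -0.05 in mean log2 ratio with a pooled SD of 0.06, which is within the spread between replicates. This ratio does not depend on any scaling by library. With the trend removed the mean ratio was 0.593 ± 0.032 in CuNZ@Gel against 0.782 ± 0.020 in Gel (SD, n = 2 each). Most class II reads were those of Cd74: without it, class II reads were 41.3 and 51.8 RPM in CuNZ@Gel against 53.4 and 56.6 RPM in Gel, and the ratio to class I was 0.174 and 0.221 in CuNZ@Gel against 0.135 and 0.143 in Gel. These sums and ratios are descriptions, with no test.

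**Figure D5:**
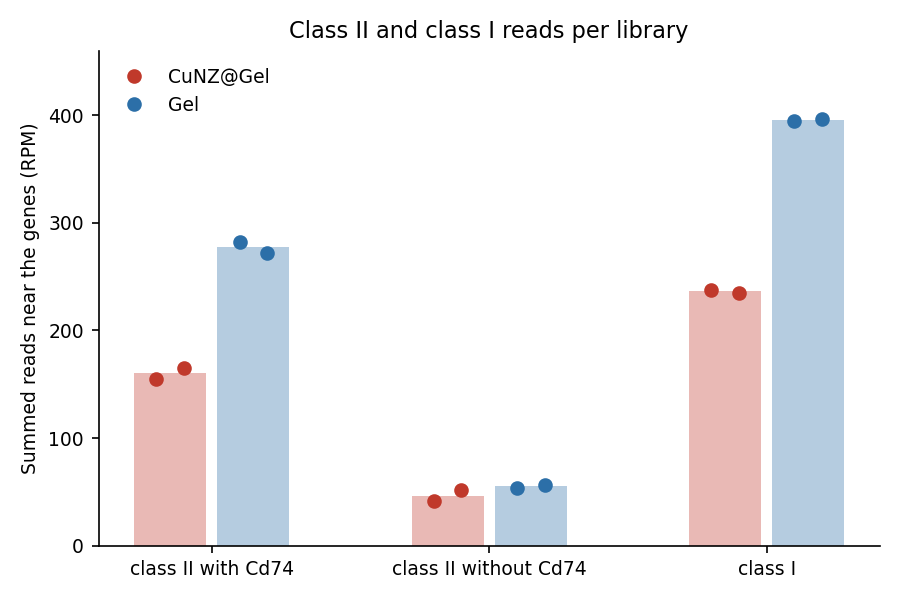
Summed RPM of class II genes with and without Cd74 and of class I genes, with CuNZ@Gel in red left of Gel in blue, bars at the mean and a point for each of 2 libraries. Class II with Cd74, class II without Cd74 and class I are all lower in both CuNZ@Gel libraries. Class II without Cd74 has 41.3 and 51.8 RPM in CuNZ@Gel against 53.4 and 56.6 RPM in Gel.

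Fewer member regions held a peak in CuNZ@Gel than in Gel. A peak is the authors' call in that library alone, and the number of peaks was 42612 and 53273 in CuNZ@Gel against 61757 and 59251 in Gel, so a missing peak can come with fewer reads. Of the 35 member regions, 17 and 22 held a peak in the CuNZ@Gel libraries against 32 and 29 in the Gel libraries. A peak in all 4 libraries was found for 16 of them, in both Gel libraries alone for 7, and in both CuNZ@Gel libraries alone for 0. Over all regions these shares were 39.6%, 11% and 2.28%. The 7 with peaks in Gel alone were Ciita regions 2 and 3, Nlrc5 region 7, H2-Ab1 regions 2 and 3, Cd74 region 4 and H2-D1 region 3. All but Nlrc5 region 7 are among the regions called lower. Because regions were built from peaks, these 7 were included through the Gel libraries alone, which favours lower values in CuNZ@Gel. For them the missing peak is not separate evidence of a fall.

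The partners of Ciita and Nlrc5 were lower in CuNZ@Gel on the deposited scaling. Of the 7 listed regulators that build the X and Y box complex, Rfxank had no region and the other 6 were all lower. Over all genes 36.1% were lower, and in the highest of 10 gene bins by level 81% were. The median log2 change of these 6 was -0.50. The RFX subunits Rfx5 and Rfxap had log2 changes of -0.57 and -0.44. The NF-Y subunits Nfya, Nfyb and Nfyc had log2 changes of -0.70, -0.30 and -0.42. None of the 6 passed the test with the trend removed (adjusted p between 0.114 and 0.835 by limma).

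The other class II chains and chaperones followed in part. Of 5 tested, 3 were lower and none higher, against 36.1% and 20.5% of all genes. The lower ones were H2-Ea, the alpha chain of I-E (log2 change -0.41), and H2-DMb2, a beta chain of the peptide exchange molecule (-0.38). Also lower was H2-Ob, a chain of its inhibitor (-0.52). H2-Ob had 18.4 and 16.4 RPM in CuNZ@Gel against 27.2 and 23.6 RPM in Gel and was the only one still lower with the trend removed (log2 change -0.49, adjusted p = 0.00323 by limma). H2-DMb1 and H2-Oa did not pass, with log2 changes of -0.05 and -0.03. Among 9 genes of class II processing and turnover 1 was higher and 7 were lower, against 20.5% and 36.1% of all genes. With the trend removed none was higher and 2 were lower, against 20.2% and 15.9% of all genes. The lysosomal protease Ctss had a log2 change of -0.49, and of -0.29 with the trend removed, where it was still lower. The lysosomal enzymes Ifi30 (-0.77) and Lgmn (-0.38) lost the call with the trend removed (-0.11 and 0.09). The steepest fall was that of the protease Ctsl, picked after its values were seen (-1.06, and -0.61 with the trend removed). The higher one, Marchf1, a ubiquitin ligase that removes class II molecules from the surface, had 22.2 and 19.9 RPM in CuNZ@Gel against 15.3 and 17.6 RPM in Gel (log2 change 0.34, adjusted p = 0.0321 by limma), and -0.03 with the trend removed.

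In the class I pathway 3 of 8 peptide loading genes were tested: 1 was higher and 2 were lower, against 20.5% and 36.1% of all genes. Canx (log2 change -0.67) and Erap1 (-0.51) were lower, and both calls were lost with the trend removed (-0.08 and -0.02). The transporter gene Tap2 stood on the higher side. It had 53.1 and 57.8 RPM in CuNZ@Gel against 43.3 and 44.9 RPM in Gel (log2 change 0.32, adjusted p = 0.00273 by limma, and 0.44 with the trend removed). As with Nlrc5, the rise came from 1 region, Tap2 region 3, with 19.6 and 19.9 RPM in CuNZ@Gel against 4.61 and 4.33 RPM in Gel (log2 change 1.93, adjusted p = 1.25e-13 by limma). That region was picked after its values were seen. Tap1 and the peptide loading gene Tapbp had no region. Of 5 immunoproteasome genes 3 were lower and none higher, against 36.1% and 20.5% of all genes. With the trend removed none was lower and 2 were higher, against 15.9% and 20.2% of all genes. Psmb8 was lower (log2 change -0.29), a call lost with the trend removed (0.13), and Psmb9 (-0.14) and Psmb10 (0.16) did not pass. Psmb9 and Psmb10 were higher with the trend removed, at 0.29 and 0.43.

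Of 16 other class I chains, 9 were tested, of which 1 was higher and 3 were lower, against 20.5% and 36.1% of all genes. The higher one was Cd1d1, which presents lipids and was picked after its values were seen (log2 change 0.52, adjusted p = 0.0062 by limma). H2-T23, which encodes the heavy chain of Qa-1, was lower (log2 change -0.50, and -0.35 with the trend removed). H2-M3, which presents formylated peptides, had a log2 change of 0.07 that did not pass and of 0.38 with the trend removed, where it was higher. H2-Q7 had no region. With the trend removed 2 of the 9 were higher and 2 lower, against 20.2% and 15.9% of all genes. Of 10 genes of interferon gamma signalling, the pathway that induces Ciita, 8 were lower and none higher, against 36.1% and 20.5% of all genes. With the trend removed 3 were lower and 1 was higher, against 15.9% and 20.2% of all genes. The receptor chain Ifngr1 was lower (-0.68, and -0.14 with the trend removed). The other chain, Ifngr2, did not pass (-0.12) and was the one that was higher with the trend removed (0.26). The transcription factor Irf1 had 124 and 115 RPM in CuNZ@Gel against 216 and 226 RPM in Gel (log2 change -0.88, adjusted p = 1.1e-10 by limma, and -0.36 with the trend removed). Over all 47 tested genes of the 61 listed, 3 were higher, 32 lower and 12 did not pass, against 20.5% higher and 36.1% lower among all genes, with a median log2 change of -0.31. Removal of the trend left 6 higher and 8 lower, against 20.2% and 15.9% of all genes, and the median was 0.00.

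The genes most like each regulator were found by the Euclidean distance over the 4 log2(RPM + 1) values. For Ciita they were Zfp703 (distance 0.068), Ube2d2a (0.0797) and Psip1 (0.0873). For Nlrc5 they were Tnip3 (0.102), Adora2b (0.115) and Hps1 (0.13). The likeness covers level and change over 4 libraries, and nothing else.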

How the data were processed

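The submitters' processing notes name MACS2 2.2.8, Picard 2.27.5, SAMtools 1.17, Bowtie2 2.3.4.3, fastp 0.23.1 and the build GRCm39. Which step each performed was not given in the sources used here. Deposited log2 values cover 80929 regions and were read as log2(RPM + 1), since after reversal 100% of low values lay within 0.1 of a whole number of reads in each library. Joining deposited peaks that lay no more than 1 base apart gave the same regions and their coordinates. These lists hold, per the narrowPeak layout of the deposited files, a fold enrichment (ratio), the -log10 p and -log10 q, and a score derived from the q-value. They were used to find peaks and to recover the genome background pileup (1.17 and 1.20 for CuNZ@Gel, 1.00 and 0.962 for Gel). With it, 6.54% and 8.66% of the fold enrichments examined in CuNZ@Gel gave near-whole pileup values, against 34.4% and 31.1% in Gel. The recovered background, and the scaling built on it, thus rest on a smaller share of peaks in CuNZ@Gel.

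Gene values are log2(sum of RPM + 1) over the regions named for a gene. The test was that of limma 3.58.1 under R 4.3.3, with an intensity trend, after keeping features with at least 10 reads at the median depth in 2 libraries and 15 reads in all. All 35 member regions and the 9 member genes with regions passed this filter. Changes are CuNZ@Gel minus Gel and understate those of low values. Alternatives covered scaling, filters, the pseudocount, voom on recovered reads, the replicate number as a block and each library left out. The step was also run on simulated data in which most genes were unchanged and no trend with level was present. These data differ in both respects, so that run does not bear on how far the calls here hold.

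The members and gene lists were chosen with earlier results of these data known. The text names all members, a fixed set of pathway genes, and the 3 genes nearest in pattern to Ciita and Nlrc5. Of the genes so fixed, 1 is not reported here. No GRCm39 annotation was used, so regions were not placed in exons, introns or UTRs. Numbers shared by replicates were not taken to pair the samples.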

Additional observations from a re-analysis of the deposited data

How the results depend on the processing

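The scaling moved the results most. With the genome background pileup, 0 member genes were higher and 8 lower, 0 member regions higher and 31 lower, and 0 of the other pathway genes were higher. Log2 changes that turned negative there were those of Nlrc5 (-0.81), H2-Aa (-0.65), Nlrc5 region 2 (-0.91), Nlrc5 region 3 (-0.72), Ciita region 5 (-0.57), H2-Aa region 2 (-0.31) and Cd74 region 1 (-0.67). That scaling shifts the median gene by -1.06, and library totals shift it by 0.15. With library totals, 10 member regions were lower, against 9158 of all 77014 regions tested. Calls were lost for Ciita region 2, Nlrc5 region 4, H2-Ab1 regions 1 and 3, H2-Aa region 1, H2-D1 region 4 and Cd74 region 5. Of the 47 pathway genes tested, 8 were then higher and 12 lower, against 8890 and 4839 of all 25900 genes tested. Small positive changes were found with library totals for H2-K1 and its region (0.11), B2m region 2 (0.22), Ciita region 4 (0.056), H2-Eb1 region 1 (0.000252) and H2-D1 region 5 (0.023). With cyclic loess, 6 pathway genes were higher and 8 lower, the log2 ratio of class II to class I differed by -0.40 in place of -0.05, and H2-D1 region 1 turned to 0.14. With voom, H2-K1 turned to 0.051 and its region to 0.073. Median-of-ratios factors and a pseudocount of 0.25 changed no call of a member gene or region. Over the 4 fits that leave out 1 library, some changes that did not pass the test turned sign: B2m region 2 from -0.17 to 0.10, Nlrc5 region 2 from -0.038 to 0.23, Ciita region 4 from -0.36 to 0.085 and H2-D1 region 5 from -0.62 to 0.24. H2-K1 and its region passed the filter in 2 of these fits, with -0.29 when Gel replicate 2 was left out and 0.31 when CuNZ@Gel replicate 1 was. In the same fits member genes higher ranged from 0 to 1 (main value 2) and lower from 5 to 6, member regions higher from 2 to 4 and lower from 11 to 17, and pathway genes higher from 1 to 4 and lower from 27 to 33. The cause of these shifts was not tested. Regions with a peak in all 4 libraries numbered 10 in place of 16 where a peak had to cover at least 50% of the region. With the replicate block, 2 member genes were higher and 6 lower, since H2-Eb1 passed (adjusted p = 0.0424 by limma), and no member region changed its call. Correlation of the deviations of same-numbered libraries was 0.0429 over 25900 genes. H2-Eb1 also passed without a filter (adjusted p = 0.0479 by limma) and with at least 30 reads in every library (0.0461). Depth limits H2-K1, which had 4 reads in 1 library.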
